A study of Homo sapiens with 12 samples.

Results

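A set of 8 genes that join cells to one another or to the matrix was followed, 7 adhesion receptors (ICAM1, VCAM1, ALCAM, MCAM, L1CAM, CD44 and CD82) and the matrix glycoprotein tenascin C (TNC). They were read by every probe that the array's annotation assigns to these symbols, 15 of the 47322 probes on the array and 8 of its 20042 named genes. The arrays held total RNA of MDA-MB-231, a human breast cancer cell line with a mutant p53, and each probe gave a fluorescence intensity on an Illumina bead array. The 4 groups were p53 siRNA cells given TNF, p53 siRNA cells left untreated, control siRNA cells given TNF, and control siRNA cells left untreated. Each group held 3 arrays, which the labels call biological replicates. All cells were grown in 10% serum, transfected, and moved 48 h later to 0.1% serum for 20 h, with TNF at 10 ng/ml in the treated groups. The study asked how the mutant p53 of these cells bears on genes induced by TNF. It used 1 cell line and transient siRNA, so siRNA effects that do not pass through p53 cannot be told apart from those that do.

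Tumour necrosis factor (TNF) is an inflammatory cytokine that acts through membrane receptors to release the transcription factor NF-kB, and ICAM1 and VCAM1 are its textbook adhesion targets in endothelium. There they bind leukocyte integrins and hold leukocytes on the vessel wall. CD44 is the main cell surface receptor for hyaluronan, CD82 is a tetraspanin that organises integrins and other receptors in the membrane, and tenascin C is secreted into inflamed and tumour matrix, where integrins bind it.

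The promoters of ICAM1, VCAM1 and TNC are shown because these genes stand for the contrasts among the members. ICAM1 and VCAM1 are both textbook TNF targets, of which ICAM1 was raised here and VCAM1 was not detected, and TNC was the member that stood higher with p53 siRNA under TNF. Each run is the 250 bases upstream of the RefSeq start site, 5′ to 3′ on the gene's strand, from assembly GRCh38.p14. Capitals mark the kappa B-like letters GGG and CC with any 5 bases between (the open motif) or GGAANTTCC, and TATAAA, each searched on both strands, with overlapping matches joined.
ICAM1: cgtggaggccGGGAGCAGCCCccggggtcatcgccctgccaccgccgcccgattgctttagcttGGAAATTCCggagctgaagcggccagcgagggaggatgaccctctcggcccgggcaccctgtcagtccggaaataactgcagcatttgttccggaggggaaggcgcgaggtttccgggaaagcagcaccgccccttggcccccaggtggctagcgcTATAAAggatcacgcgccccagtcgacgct
VCAM1: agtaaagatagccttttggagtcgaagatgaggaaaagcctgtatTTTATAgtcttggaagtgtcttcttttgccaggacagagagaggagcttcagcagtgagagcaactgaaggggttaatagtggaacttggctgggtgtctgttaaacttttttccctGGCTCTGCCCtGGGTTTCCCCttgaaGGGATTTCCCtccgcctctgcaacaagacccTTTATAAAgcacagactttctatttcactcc
TNC: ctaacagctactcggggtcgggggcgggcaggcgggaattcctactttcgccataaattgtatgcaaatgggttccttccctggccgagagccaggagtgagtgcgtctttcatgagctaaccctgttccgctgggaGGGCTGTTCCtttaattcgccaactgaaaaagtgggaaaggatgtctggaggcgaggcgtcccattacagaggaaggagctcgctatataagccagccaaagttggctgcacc
The ICAM1 window is chr19:10270870-10271119 on the plus strand, and it holds GGAAATTCC at bases -186 to -178 from the start site and TATAAA at -30 to -25. Overlapping matches to the open motif lie at -240 to -231 and -239 to -230. The VCAM1 window is chr1:100719492-100719741 on the plus strand. It holds 3 matches to the open motif, GGCTCTGCCC at -88 to -79, GGGTTTCCCC at -77 to -68 and GGGATTTCCC at -62 to -53, and TATAAA at -29 to -24, which overlaps TTTATA at -31 to -26, with TTTATA again at -205 to -200. The TNC window is chr9:115118158-115118407 on the minus strand and holds GGGCTGTTCC at -113 to -104. Of 35116 promoter windows of the same length, 54.4% held the open motif, 0.826% held GGAANTTCC and 10.7% held TATAAA. Among the members only the ICAM1 window held GGAANTTCC, and a match of letters is a description and not a shown binding site.

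Brightness was similar across the series: array medians spanned 226.35 to 266, and each array detected 19810 to 21157 probes. Arrays of 1 group correlated at 0.973 to 0.992 over the tested probes. The low end was untreated p53 siRNA replicate 3, which correlated with the other arrays of its group at 0.973 and 0.976. Without it, the TNF change in p53 siRNA cells was 2.12 ± 0.24 for ICAM1, 0.50 ± 0.10 and 0.78 ± 0.15 for the CD82 probes and 1.11 ± 0.13 and 0.72 ± 0.12 for the TNC probes (log2 ± SE), and all of these passed, as they did with it. Markers of the MDA-MB-231 line were detected on all 12 arrays for 7 of 7 genes, and of 10 luminal and epithelial markers ERBB2, EPCAM, KRT8, KRT18 and KRT19 were detected on all 12, GATA3 on 10, FOXA1 on 9, and ESR1, PGR and CDH1 on none. Of the endothelial markers CDH5, KDR, VWF and CLDN5 were detected on no array, PECAM1 and ESAM on all 12, and TIE1, TEK and SELE on some. Of the leukocyte markers PTPRC, CD3E and SPI1 were detected on none, CD14, ITGB2 and LAPTM5 on all 12, and CD2 on some. Neither slides nor batches are recorded in what was used here, so a batch that a whole group shared cannot be told apart from the group.

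TNF raised ICAM1, CD82 and TNC in both siRNA groups, and ALCAM and L1CAM gave no call for TNF. For CD44 only the brightest probe was called in both groups. In p53 siRNA cells that call, at 0.42 ± 0.10 (limma adjusted p = 0.0344), was lost in 13 of 21 alternative settings. ICAM1, a ligand of leukocyte integrins, gave the largest change of the members, 4.19-fold in p53 siRNA cells and 9.05-fold in control siRNA cells. VCAM1 stayed undetected with or without TNF. A probe entered the test when 3 or more of the 12 arrays detected it, at a detection p under 0.05. Of the 15 probes 12 did so, from 7 of the 8 genes. Such a probe was called at an adjusted p under 0.05 over all 23079 such probes. In p53 siRNA cells 6 of the 12 probes were called for TNF, 6 higher and 0 lower (likewise 6 at an unadjusted limma p under 0.05), where 4.93% of all tested probes were called (2.57% higher, 2.37% lower). In control siRNA cells 7 of the 12 were called, 6 higher and 1 lower, against 6.24% of all tested probes (3.31% higher, 2.92% lower). The median log2 change of the 12 probes was 0.32 in p53 siRNA cells, beside -0.00 over all tested probes, and 0.49 in control siRNA cells, beside -0.01. These genes were named with the earlier results of the series known, and MCAM, the 1 lower call, passed the detection filter only through the untreated control siRNA arrays. In a bulk RNA measurement a change in every cell and a change in a part of the cells cannot be told apart.

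**Figure D1:**
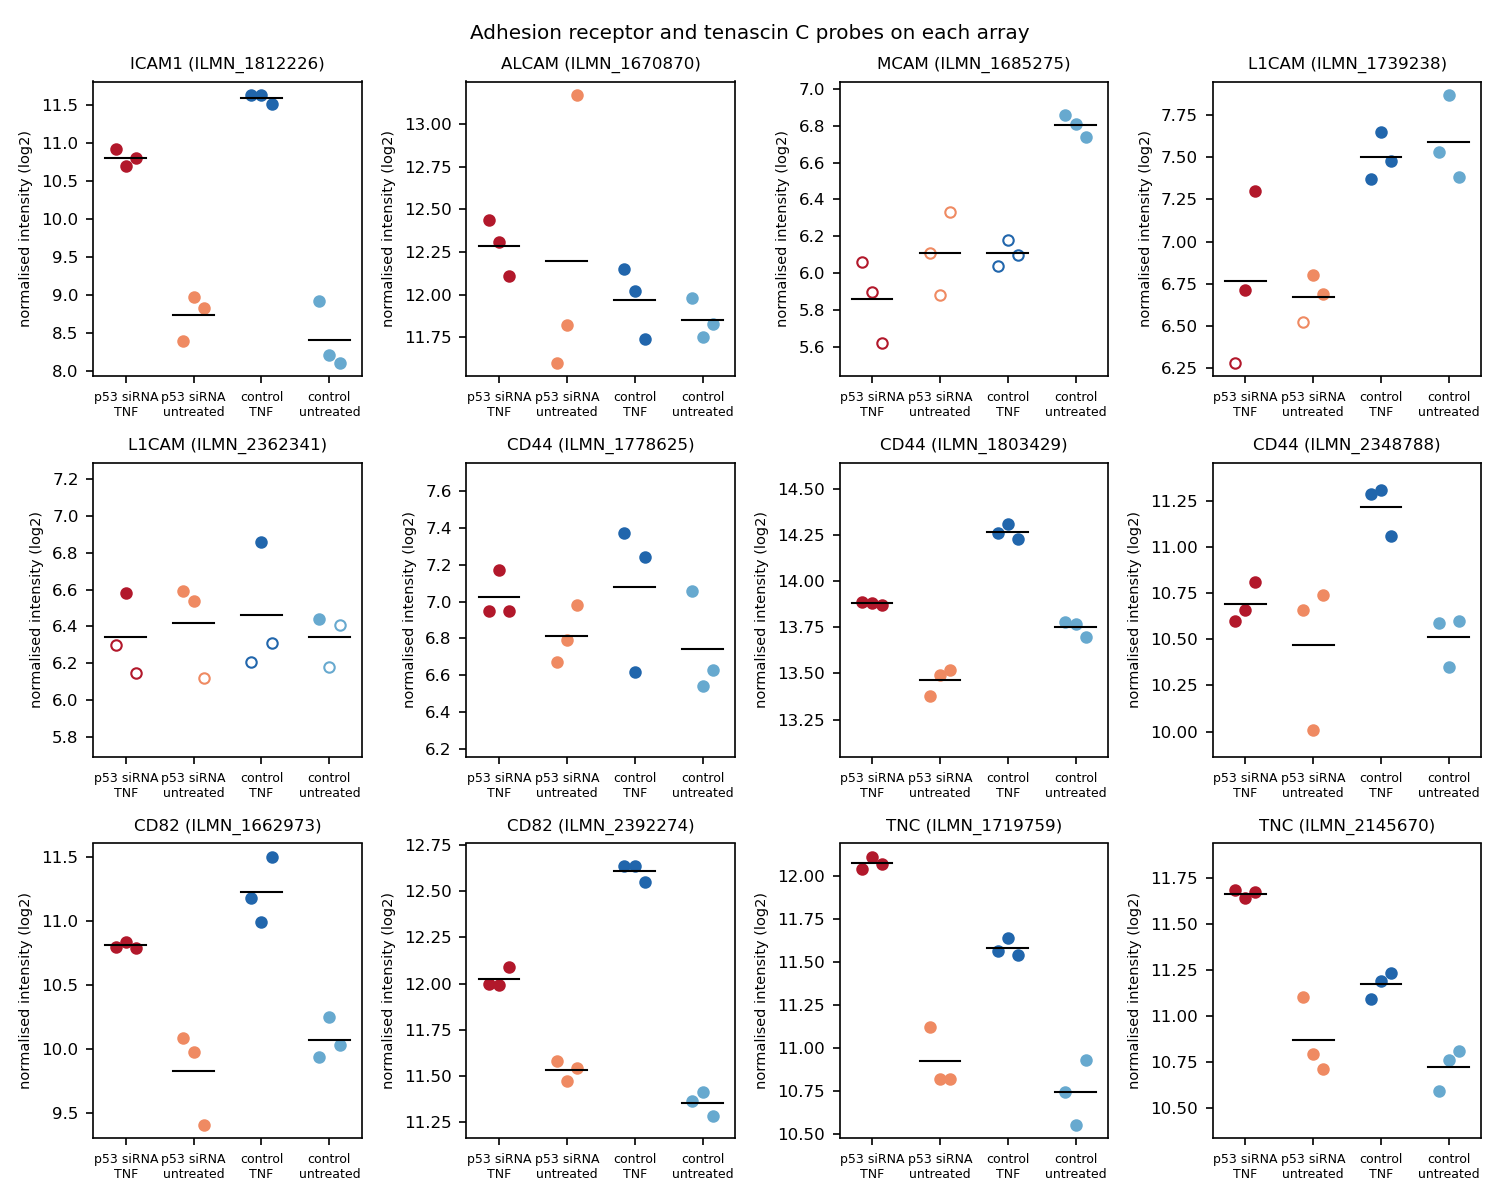
Normalised log2 intensity of the 12 tested probes on each of the 12 arrays, 1 panel per probe, with groups along the horizontal axis. Filled points were detected and open points were not, and bars are group means of 3 arrays. ICAM1, CD82 and TNC sit higher in both TNF groups, and MCAM is detected only in untreated control siRNA cells. VCAM1 had no tested probe and is not drawn.

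ICAM1 encodes intercellular adhesion molecule 1, an immunoglobulin-type receptor that binds the leukocyte integrins LFA-1 and Mac-1. Its probe read 10.92, 10.70 and 10.80 in TNF-treated p53 siRNA cells and 8.40, 8.98 and 8.83 in untreated p53 siRNA cells (normalised log2 intensity, replicates 1 to 3). It read 11.63, 11.63 and 11.51 in TNF-treated control siRNA cells and 8.92, 8.21 and 8.11 in untreated control siRNA cells. All 6 TNF arrays lay above all 6 untreated arrays, the TNF-treated p53 siRNA arrays lay below the TNF-treated control siRNA arrays, and the untreated groups overlapped. The log2 change with TNF was 2.07 ± 0.21 in p53 siRNA cells (SE from limma, 3 arrays against 3, adjusted p = 8.41e-05) and 3.18 ± 0.21 in control siRNA cells (adjusted p = 1.58e-06). Ordered by log2 change from the highest, the probe ranked 48 of 23079 in p53 siRNA cells and 20 in control siRNA cells. Under TNF, ICAM1 was lower in p53 siRNA cells by a log2 difference of -0.79 ± 0.21 (adjusted p = 0.0163). This call was lost without control siRNA TNF replicate 2 (adjusted p = 0.0527) or p53 siRNA TNF replicate 2 (0.0598). In untreated cells the p53 siRNA difference was 0.32 ± 0.21 (adjusted p = 0.277), and it reached 0.58 (adjusted p = 0.0327) without untreated control siRNA replicate 1, the highest array of its group.

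VCAM1, the vascular adhesion molecule that binds the integrin alpha 4 beta 1, had 3 probes, and none was detected on any of the 12 arrays. Their deposited intensities ran from 148.7 to 249.7, and the lowest detection p was 0.108. At this signal over background a change in VCAM1 was not detectable, and no fold is given.

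Among the other immunoglobulin-type receptors, ALCAM, which binds CD6 on T cells and also pairs with itself, gave no call. Its probe read 12.44, 12.31 and 12.11 in TNF-treated p53 siRNA cells, 11.60, 11.82 and 13.17 in untreated p53 siRNA cells, 12.15, 12.02 and 11.74 in TNF-treated control siRNA cells and 11.98, 11.75 and 11.83 in untreated control siRNA cells. The high value in untreated p53 siRNA cells is replicate 3, the array that stood apart, and the groups overlap. The log2 change with TNF was 0.09 ± 0.31 in p53 siRNA cells (adjusted p = 0.921) and 0.12 ± 0.31 in control siRNA cells (0.91). Without untreated p53 siRNA replicate 3 the change in p53 siRNA cells was 0.57 and passed (adjusted p = 0.0409). The p53 siRNA difference was 0.31 ± 0.31 under TNF and 0.34 ± 0.31 in untreated cells (adjusted p = 0.525 and 0.458).

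MCAM, a receptor first known from melanoma and also found on endothelium, was close to the detection limit. Its probe was detected on the 3 untreated control siRNA arrays, at 6.86, 6.81 and 6.74, and on no other array. The undetected values were 6.06, 5.90 and 5.62 in TNF-treated p53 siRNA cells, 6.11, 5.88 and 6.33 in untreated p53 siRNA cells and 6.04, 6.18 and 6.10 in TNF-treated control siRNA cells. All 9 undetected arrays lay below the 3 detected ones. Against untreated control siRNA cells MCAM was at least 1.28-fold lower in untreated p53 siRNA cells and at least 1.31-fold lower in TNF-treated control siRNA cells. The probe entered the test only through the group in which it was high, so the adjusted p-values given here are those with no detection filter, over all 47322 probes, 0.0044 for p53 siRNA in untreated cells and 0.0154 for TNF in control siRNA cells. Each bound sets the untreated control siRNA mean against the lowest signal of a detected probe on the dim arrays, or the probe's own value where higher. The TNF call among the filtered probes was lost without untreated control siRNA replicate 1 (adjusted p = 0.0581) or control siRNA TNF replicate 1 or 3 (0.0579 and 0.0513), with no background correction, where the change was -0.32 (adjusted p = 0.0651), against -0.69 ± 0.14 with it, and on the authors' processed values (-0.34, adjusted p = 0.0573).

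L1CAM, a neural adhesion receptor that binds itself and integrins, had 2 tested probes that did not move alike (r = -0.04 over the 12 arrays). The brighter, ILMN_1739238, read 6.28, 6.71 and 7.30 in TNF-treated p53 siRNA cells, 6.52, 6.80 and 6.69 in untreated p53 siRNA cells, 7.37, 7.65 and 7.48 in TNF-treated control siRNA cells and 7.53, 7.87 and 7.38 in untreated control siRNA cells. All 6 p53 siRNA arrays lay below all 6 control siRNA arrays, and 2 of 3 arrays were detected in each p53 siRNA group. The p53 siRNA difference was -0.74 ± 0.22 under TNF (adjusted p = 0.0313) and -0.93 ± 0.22 in untreated cells (adjusted p = 0.0085). With no background correction these values were -0.32 and -0.41, and both still passed. The call under TNF was lost without control siRNA TNF replicate 1, 2 or 3 (adjusted p = 0.0507, 0.104 and 0.0756) or p53 siRNA TNF replicate 1 or 2 (0.127 and 0.0876), and when only the compared groups were fitted (0.0616). The other probe, ILMN_2362341, was detected on 5 of the 12 arrays and gave -0.12 ± 0.19 under TNF and 0.07 ± 0.19 in untreated cells. For TNF the brighter probe gave 0.09 ± 0.22 in p53 siRNA cells and -0.10 ± 0.22 in control siRNA cells (adjusted p = 0.875 and 0.893).

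CD44 had 3 tested probes, and its brightest, ILMN_1803429, was higher with TNF and lower with p53 siRNA under TNF. That probe read 13.89, 13.88 and 13.87 in TNF-treated p53 siRNA cells and 13.38, 13.49 and 13.52 in untreated p53 siRNA cells. In control siRNA cells it read 14.26, 14.31 and 14.23 with TNF and 13.78, 13.77 and 13.70 without. The arrays of each group lay clear of those of every other group, and the steps between groups were small beside those of ICAM1. The log2 change with TNF was 0.42 ± 0.10 in p53 siRNA cells (adjusted p = 0.0344) and 0.52 ± 0.10 in control siRNA cells (adjusted p = 0.0093). The call in p53 siRNA cells held without untreated p53 siRNA replicate 2 or 3 and was lost without any 1 of the other 10 arrays (adjusted p from 0.0506 to 0.118), and likewise with median scaling (0.177), when only the compared groups were fitted (0.228) or with the replicate number as a block (0.0653). The call in control siRNA cells was lost without untreated control siRNA replicate 3 (adjusted p = 0.0508) and with median scaling (0.105). The p53 siRNA difference was -0.39 ± 0.10 under TNF (adjusted p = 0.016) and -0.29 ± 0.10 in untreated cells (adjusted p = 0.0519). The difference under TNF was not called without control siRNA TNF replicate 2 (adjusted p = 0.0576) or p53 siRNA TNF replicate 1, 2 or 3 (0.0506, 0.0532 and 0.0546), and the untreated one passed without untreated p53 siRNA replicate 3 (-0.31, adjusted p = 0.0251), with median scaling (-0.52, adjusted p = 0.0285), with no background correction (0.0192), on the authors' processed values (0.0342), among probes detected on all 12 arrays (0.0248) and with 1 probe per gene (0.0286).

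The second CD44 probe, ILMN_2348788, correlated with the brightest at 0.784 over the 12 arrays. It read 10.60, 10.66 and 10.81 in TNF-treated p53 siRNA cells, 10.66, 10.01 and 10.74 in untreated p53 siRNA cells, 11.29, 11.31 and 11.06 in TNF-treated control siRNA cells and 10.59, 10.35 and 10.60 in untreated control siRNA cells. Only the TNF-treated control siRNA arrays stood clear of the rest. Its log2 change with TNF was 0.22 ± 0.18 in p53 siRNA cells (adjusted p = 0.571) and 0.71 ± 0.18 in control siRNA cells (adjusted p = 0.0366), a call that was lost without any 1 of the control siRNA arrays or the TNF-treated p53 siRNA arrays (adjusted p from 0.0524 to 0.144), with median scaling (0.14) or with no detection filter (0.0503). The p53 siRNA difference under TNF was -0.53 ± 0.18 (adjusted p = 0.0517) and passed without untreated p53 siRNA replicate 1, 2 or 3 (0.0477, 0.00978 and 0.0295), with median scaling (0.0446), with no background correction (0.0178), on the authors' processed values (0.0194), among probes detected on all 12 arrays (0.0351), with array weights (0.00987) and when only the compared groups were fitted (0.0122). The dimmest CD44 probe, ILMN_1778625, ranged from 6.54 to 7.37 over the 12 arrays and gave no call, with the largest change 0.33 ± 0.20 for TNF in control siRNA cells (adjusted p = 0.445). The annotation used here does not tell which CD44 splice forms each probe reads.

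CD82, also called KAI1 and known as a suppressor of metastasis, had 2 tested probes, and both rose with TNF in both siRNA groups. The brighter, ILMN_2392274, read between 11.99 and 12.09 on the 3 arrays of TNF-treated p53 siRNA cells, 11.58, 11.47 and 11.54 in untreated p53 siRNA cells, 12.64, 12.64 and 12.55 in TNF-treated control siRNA cells and 11.36, 11.41 and 11.28 in untreated control siRNA cells. The 4 groups did not overlap, and the distance between TNF and untreated arrays was wider in control siRNA cells. Its log2 change with TNF was 0.50 ± 0.10 in p53 siRNA cells (adjusted p = 0.0156) and 1.26 ± 0.10 in control siRNA cells (adjusted p = 1.11e-05). The call in p53 siRNA cells was lost without p53 siRNA TNF replicate 1, 2 or 3 (adjusted p = 0.0573, 0.0566 and 0.0813), with median scaling (0.109) and when only the compared groups were fitted (0.15). With p53 siRNA the probe was lower under TNF, by -0.58 ± 0.10 (adjusted p = 0.00168), and at 0.18 ± 0.10 in untreated cells (adjusted p = 0.228).

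The other CD82 probe, ILMN_1662973, correlated with the brighter one at 0.884 and gave a more even TNF response. It read 10.80, 10.84 and 10.79 in TNF-treated p53 siRNA cells, 10.09, 9.98 and 9.41 in untreated p53 siRNA cells, 11.18, 10.99 and 11.50 in TNF-treated control siRNA cells and 9.94, 10.25 and 10.03 in untreated control siRNA cells. All TNF arrays lay above all untreated arrays. The log2 change with TNF was 0.99 ± 0.18 in p53 siRNA cells (adjusted p = 0.00847) and 1.15 ± 0.18 in control siRNA cells (adjusted p = 0.00253). The call in p53 siRNA cells did not hold when only the compared groups were fitted (adjusted p = 0.0586). The p53 siRNA difference was -0.41 ± 0.18 under TNF (adjusted p = 0.137) and -0.24 ± 0.18 in untreated cells (adjusted p = 0.373). Without untreated p53 siRNA replicate 3 the difference under TNF passed (adjusted p = 0.0422), as it did with array weights (0.0313), and with median scaling it was -0.63 under TNF and -0.42 in untreated cells and passed in both (adjusted p = 0.00634 and 0.0488).

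TNC had its highest level in TNF-treated p53 siRNA cells. Its brighter probe, ILMN_1719759, read 12.04, 12.11 and 12.07 in TNF-treated p53 siRNA cells, 11.12, 10.82 and 10.82 in untreated p53 siRNA cells, 11.56, 11.64 and 11.54 in TNF-treated control siRNA cells and 10.74, 10.55 and 10.93 in untreated control siRNA cells. Both TNF groups lay above both untreated groups and apart from each other, and the untreated groups overlapped. The log2 change with TNF was 1.15 ± 0.13 in p53 siRNA cells (adjusted p = 0.000218) and 0.84 ± 0.13 in control siRNA cells (adjusted p = 0.00205). Both of these calls held under every alternative tried. With p53 siRNA the probe was higher under TNF by 0.49 ± 0.13 (adjusted p = 0.0169) and at 0.18 ± 0.13 in untreated cells (adjusted p = 0.338).

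The other TNC probe, ILMN_2145670, tracked the brighter one at r = 0.963 over the 12 arrays. It read 11.68, 11.64 and 11.67 in TNF-treated p53 siRNA cells, 11.10, 10.79 and 10.71 in untreated p53 siRNA cells, 11.09, 11.19 and 11.23 in TNF-treated control siRNA cells and 10.59, 10.76 and 10.81 in untreated control siRNA cells. Here untreated p53 siRNA replicate 1 reached the level of the lowest TNF-treated control siRNA array, and the TNF-treated p53 siRNA arrays stood above all others. The log2 change with TNF was 0.80 ± 0.13 in p53 siRNA cells (adjusted p = 0.00308) and 0.45 ± 0.13 in control siRNA cells (adjusted p = 0.0573), and the value in control siRNA cells passed without untreated p53 siRNA replicate 1 or 3 (0.0224 and 0.0243), with no background correction (0.0209), on the authors' processed values (0.0237), among probes detected on all 12 arrays (0.033), with array weights (0.01) and when only the compared groups were fitted (0.0424). The call in p53 siRNA cells was lost when only the compared groups were fitted (adjusted p = 0.0555). Under TNF the p53 siRNA difference was 0.49 ± 0.13 (adjusted p = 0.0159). With median scaling the difference under TNF was 0.29 for the brighter probe and 0.25 for this one (adjusted p = 0.262 and 0.243), where the median log2 difference of all tested probes shifted to -0.12. The call of the brighter probe was also lost without control siRNA TNF replicate 3 (adjusted p = 0.0587) or p53 siRNA TNF replicate 2 or 3 (0.0604 and 0.0519), and that of this probe without control siRNA TNF replicate 1 (0.0558) or p53 siRNA TNF replicate 1 or 3 (0.0537 and 0.0501).

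**Figure D2:**
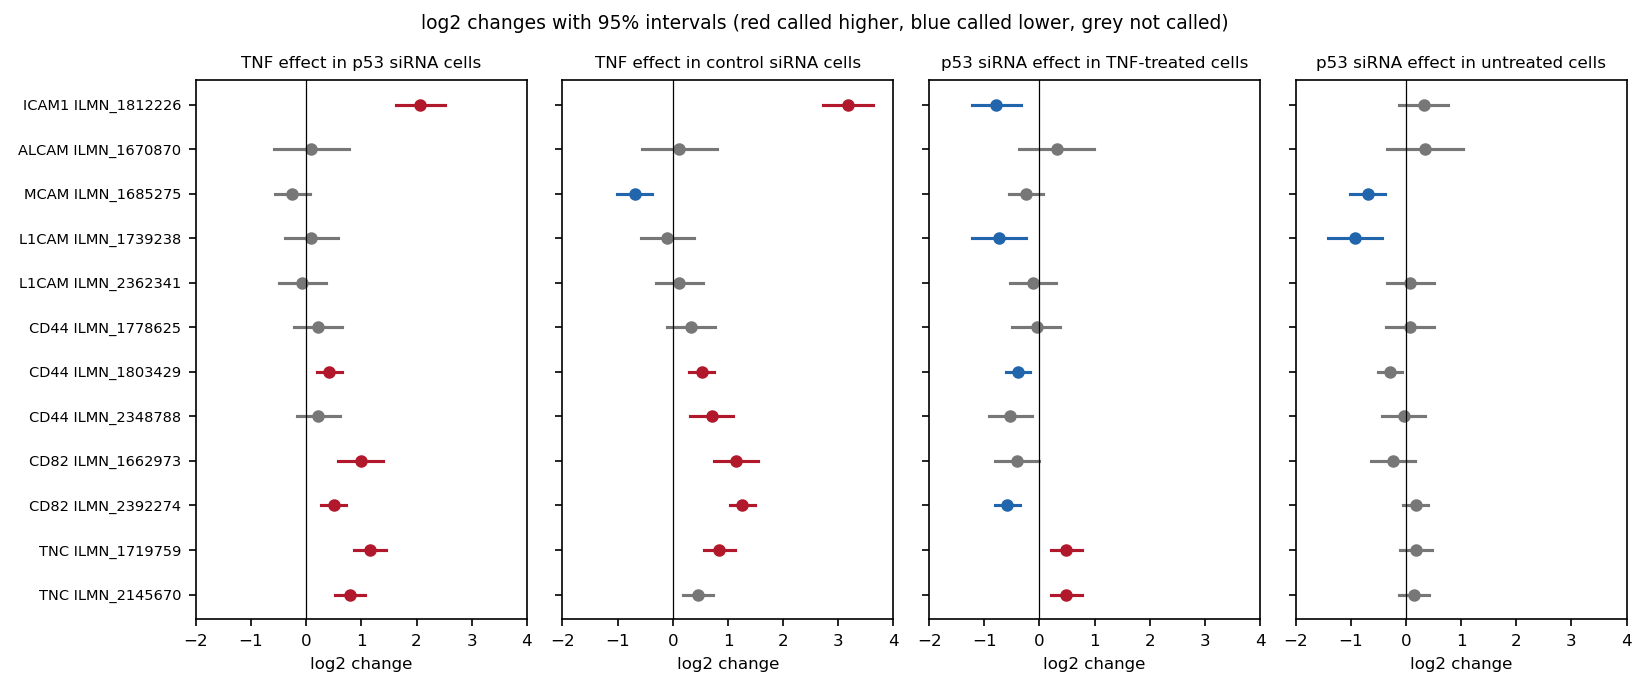
Log2 change of each of the 12 tested probes in the 4 comparisons of groups, with 95% confidence intervals from limma. Left to right the panels are TNF in p53 siRNA cells, TNF in control siRNA cells, p53 siRNA under TNF and p53 siRNA in untreated cells. ICAM1 reads 2.07 and 3.18 for TNF, and under TNF the p53 siRNA values of ICAM1, CD44, CD82 and L1CAM are below 0 while both TNC probes are at 0.49.

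With p53 siRNA under TNF, ICAM1, CD82, CD44 and L1CAM were lower and TNC was higher, while in untreated cells L1CAM was lower. Under TNF 6 of the 12 probes were called for p53 siRNA, 2 higher (both TNC) and 4 lower (ICAM1, L1CAM, CD44 and CD82, 1 probe each), against 23.1% of all tested probes (10.7% higher, 12.4% lower). In untreated cells 2 of the 12 were called, both lower, against 27.7% of all tested probes (14.0% higher, 13.8% lower). They were L1CAM and MCAM, and MCAM entered the test only through the untreated control siRNA arrays, so its call adds nothing to this count. The median log2 difference of the 12 probes was -0.32 under TNF, beside 0.02 over all tested probes, and 0.07 in untreated cells, beside 0.01. The count under TNF was 3 without control siRNA TNF replicate 2 or p53 siRNA TNF replicate 1 or 3, and 2 without p53 siRNA TNF replicate 2.

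Some markers of cell types also changed with p53 siRNA, each gene read by its brightest tested probe. Over all genes so read, 27.3% were called for p53 siRNA under TNF and 32.4% in untreated cells. Of the 7 tested MDA-MB-231 line markers, 0 were higher (likewise 0 at an unadjusted limma p under 0.05) and 4 lower with p53 siRNA under TNF, and 0 were higher (likewise 0) and 5 lower in untreated cells. Their summed deposited intensity ran from 127093.7 to 150849.6 in TNF-treated p53 siRNA cells, against 199589.5 to 244681.3 in TNF-treated control siRNA cells, and from 143315.7 to 191915.5 in untreated p53 siRNA cells, against 217437.3 to 233415.7 in untreated control siRNA cells. Of 5 tested fibroblast markers, 3 were higher and 1 lower in each of the comparisons under TNF and in untreated cells. COL3A1, 1 of the 3 higher in each, was detected on no control siRNA array. It entered the test only through the p53 siRNA arrays, so its calls add nothing to these counts. LUM and COL1A1, matrix proteins, were higher by 1.45 ± 0.21 and 0.66 ± 0.18 under TNF (adjusted p = 4e-04 and 0.0178), and PDGFRB, a growth factor receptor, was at -1.64 ± 0.24 (adjusted p = 0.000438). The sum of the 6 fibroblast markers ran from 2892.1 to 3268.2 in TNF-treated p53 siRNA cells, against 2839.6 to 3411.7 in TNF-treated control siRNA cells, and from 2726.6 to 3327.4 in untreated p53 siRNA cells, against 2579.6 to 2699.3 in untreated control siRNA cells. The sum of the 10 luminal and epithelial markers ran from 19817.9 to 23178.7 in TNF-treated p53 siRNA cells, against 29498.5 to 36549 in TNF-treated control siRNA cells, and from 28546.2 to 34169.7 in untreated p53 siRNA cells, against 32009.7 to 34430.4 in untreated control siRNA cells. That of the 9 endothelial markers ran from 5010.1 to 5992.9 in TNF-treated p53 siRNA cells, against 7966.6 to 9044.8 in TNF-treated control siRNA cells, and from 4806.4 to 5490.4 in untreated p53 siRNA cells, against 7305.5 to 7487.8 in untreated control siRNA cells. That of the 7 leukocyte markers named on the array ran from 6738.7 to 8103.6 in TNF-treated p53 siRNA cells, against 12371.5 to 15832.5 in TNF-treated control siRNA cells, and from 7794.3 to 10157.8 in untreated p53 siRNA cells, against 11887.1 to 13241 in untreated control siRNA cells. The line, endothelial and leukocyte sums lay lower with p53 siRNA under TNF and in untreated cells, the luminal sum lay lower under TNF and overlapped in untreated cells, and the fibroblast sum lay higher in untreated cells and overlapped under TNF. The sums are of intensities before normalization and include undetected probes, and single genes can differ from them. Of 4 tested endothelial markers, 2 were lower and 1 higher with p53 siRNA in untreated cells. TIE1, 1 of the 2 lower, was detected on control siRNA arrays only. It entered the test only through them, so its call adds nothing to this count. The higher one was PECAM1, at 0.97 ± 0.17 (limma adjusted p = 0.00105). The part of these markers in the result was not tested. The comparisons share arrays, so their values are given side by side and are not independent of each other.

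Whether p53 siRNA changed the TNF response itself was tested as the TNF change with p53 siRNA minus the TNF change with control siRNA, and no probe of the members passed. Limma called 0 of the 12 probes, against 0.0823% of all tested probes (19 of 23079), and 2 of the 12 had an unadjusted p under 0.05. These 2 were ICAM1, at -1.11 ± 0.29 (95% interval -1.74 to -0.47, adjusted p = 0.242), and the brighter CD82 probe, at -0.76 ± 0.15 (95% interval -1.08 to -0.44, adjusted p = 0.103). Both values stayed below 0 in all 20 alternatives, ICAM1 from -1.36 to -0.92 with adjusted p from 0.0538 to 0.466, and CD82 from -0.80 to -0.73 with adjusted p from 0.0196 to 0.466. CD82 passed in 3 of these 20, with no background correction (adjusted p = 0.0196), on the authors' processed values (0.0239) and with 1 probe per gene (0.0496). The other CD82 probe was at -0.17 ± 0.26 (95% interval -0.74 to 0.40). The TNC probes leaned the other way, at 0.31 ± 0.19 and 0.34 ± 0.18 (95% intervals -0.09 to 0.72 and -0.05 to 0.73). The brightest CD44 probe was at -0.10 ± 0.14 (95% interval -0.41 to 0.21).

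**Figure D3:**
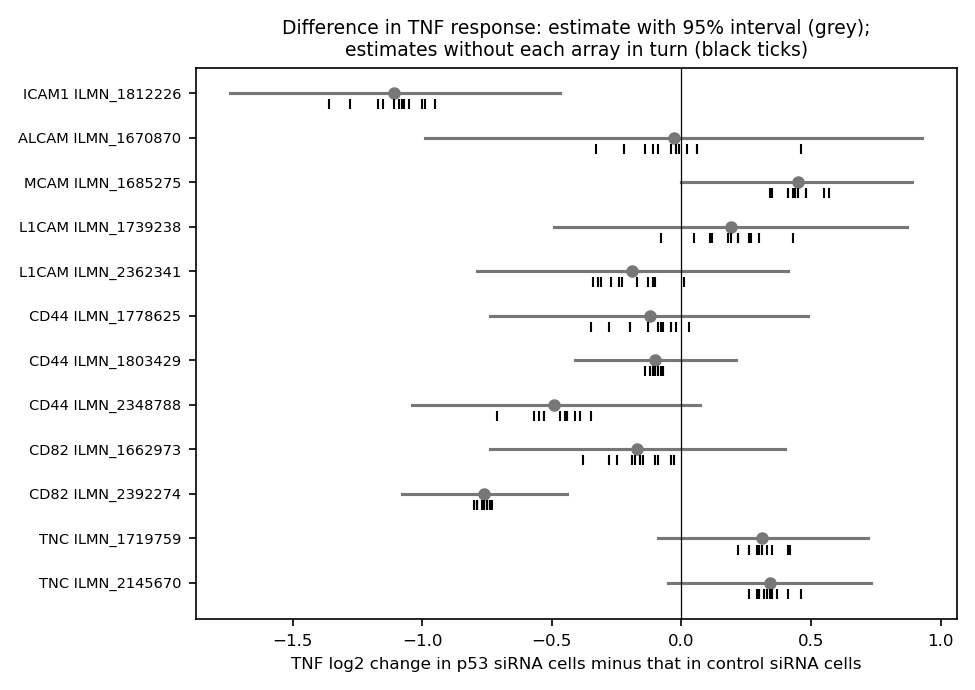
Difference in the TNF response, p53 siRNA cells minus control siRNA cells, on the log2 scale for the 12 tested probes. Grey lines are 95% confidence intervals from limma and black ticks are the values with each of the 12 arrays left out. The intervals of ICAM1 (-1.74 to -0.47) and the brighter CD82 probe (-1.08 to -0.44) lie below 0, and neither probe passed after adjustment.

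Relatives and partners of the members were described in 6 lists that hold none of the members, each gene by its brightest tested probe. Over all 12507 genes so counted, 6.05% were called for TNF in p53 siRNA cells, 7.83% for TNF in control siRNA cells, 27.3% for p53 siRNA under TNF and 32.4% for p53 siRNA in untreated cells. Among 21 further adhesion receptors, immunoglobulin-type and related, 4 rose and 3 fell with TNF in p53 siRNA cells, and 3 rose and 2 fell in control siRNA cells. NCAM2 was 1 of those that fell in each, and it was detected on untreated arrays only. It entered the test only through them, so its calls add nothing to these counts. EPCAM, an epithelial adhesion receptor that is not immunoglobulin-type, was 1 of the 3 that fell in p53 siRNA cells, at -0.62 ± 0.13 (adjusted p = 0.0156). This call was lost with median scaling (adjusted p = 0.111) and when only the compared groups were fitted (0.0983). It was also lost without p53 siRNA TNF replicate 2 or 3 (0.0581 and 0.0764). ICAM2, another ligand of LFA-1, rose by 1.25 ± 0.12 in p53 siRNA cells and by 1.34 ± 0.12 in control siRNA cells (adjusted p = 7.81e-05 and 2.97e-05), and with p53 siRNA it was at -1.15 ± 0.12 under TNF and -1.06 ± 0.12 in untreated cells (adjusted p = 5.98e-05 and 8.14e-05). MPZL2, an epithelial adhesion protein, rose by 2.17 ± 0.17 and 1.45 ± 0.17 with TNF in p53 siRNA and control siRNA cells (adjusted p = 1.13e-05 and 0.000241), where its other probe gave 0.20 and 0.51. CXADR, the receptor of coxsackie and adenoviruses at tight junctions, was higher with p53 siRNA in untreated cells by 1.32 ± 0.14 (adjusted p = 4.02e-05). For p53 siRNA this list gave 3 higher and 5 lower under TNF, and 3 higher and 5 lower in untreated cells. ICAM5, among those lower under TNF, passed the detection filter only with the TNF-treated control siRNA arrays, where it was high. NCAM2, among those lower in untreated cells, passed only with the untreated control siRNA arrays. These calls add nothing to the counts for p53 siRNA.

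Integrins, the receptors to which ICAM1, VCAM1 and TNC bind, had 13 tested subunits, of which 4 rose and 1 fell with TNF in each of the siRNA groups. ITGA1, a collagen and laminin receptor subunit, rose by 0.94 ± 0.12 in p53 siRNA cells and by 1.68 ± 0.12 in control siRNA cells (adjusted p = 0.000691 and 4.03e-06). It was also higher with p53 siRNA in untreated cells, by 1.19 ± 0.12 (adjusted p = 3.68e-05). ITGA5, the fibronectin receptor subunit, rose by 1.06 ± 0.15 with TNF in control siRNA cells (adjusted p = 0.00107). For p53 siRNA 2 subunits were higher and 1 lower under TNF, and 2 higher and 2 lower in untreated cells.

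In the hyaluronan system of CD44, 14 genes were tested, and TNF raised 4 and lowered 1 in p53 siRNA cells and raised 5 and lowered 0 in control siRNA cells (3 lower at an unadjusted limma p under 0.05). CEMIP, which takes part in hyaluronan breakdown, rose by 1.56 ± 0.12 in p53 siRNA cells and by 1.29 ± 0.12 in control siRNA cells (adjusted p = 8.39e-06 and 2.91e-05). TNFAIP6, a TNF-induced protein that binds hyaluronan, was at 2.17 ± 0.19 in p53 siRNA cells (adjusted p = 2.3e-05), where 1 of 3 untreated arrays was detected. In control siRNA cells, with none of the 3 untreated arrays detected, TNFAIP6 was at least 2.02-fold higher with TNF (adjusted p = 0.00105). It passed the detection filter only with the TNF arrays, so its calls add nothing to the counts of raised genes. HAS3, a hyaluronan synthase, was higher with p53 siRNA by 2.55 ± 0.26 under TNF and by 1.98 ± 0.26 in untreated cells (adjusted p = 3.88e-05 and 0.000179), and 2 of 3 arrays were detected in TNF-treated control siRNA cells. For p53 siRNA the list gave 3 higher and 4 lower under TNF, and 2 higher and 5 lower in untreated cells.

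Of 18 other tetraspanins, the family of CD82, 0 rose and 2 fell with TNF in p53 siRNA cells, and 0 rose and 2 fell in control siRNA cells (0 higher in either at an unadjusted limma p under 0.05). These are 11.1% of the genes in each, beside 6.05% and 7.83% over all genes, with medians of -0.11 and -0.14. TSPAN9 fell by 1.23 ± 0.14 with TNF in p53 siRNA cells (adjusted p = 0.000199), and with p53 siRNA under TNF it was at -1.19 ± 0.14 (adjusted p = 9.11e-05). For p53 siRNA the family gave 1 higher and 4 lower under TNF, and 0 higher (2 at an unadjusted p under 0.05) and 6 lower in untreated cells.

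Among 16 matricellular proteins and syndecans beside TNC, 1 rose and 1 fell with TNF in p53 siRNA cells, and 2 rose and 0 fell in control siRNA cells (3 lower at an unadjusted limma p under 0.05). SDC4, a syndecan of focal adhesions, rose by 1.30 ± 0.11 in p53 siRNA cells and by 1.19 ± 0.11 in control siRNA cells (adjusted p = 1.56e-05 and 2.44e-05). With p53 siRNA 2 were higher and 7 lower under TNF, and 2 higher and 7 lower in untreated cells, with medians of -0.45 and -0.49 beside 0.01 over all genes in each comparison. THBS1, thrombospondin 1, was at -1.27 ± 0.18 under TNF and -0.89 ± 0.18 in untreated cells (adjusted p = 0.000346 and 0.00289), and CCN1, an integrin-binding matrix protein, at -0.98 ± 0.14 and -1.10 ± 0.14 (adjusted p = 0.000448 and 0.000161). TNC, higher with p53 siRNA under TNF, lay on the other side of 0 from these and on the side of the 2 higher genes. The TNC calls for p53 siRNA under TNF were lost with median scaling (adjusted p = 0.262 and 0.243).

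Sheddases, proteases that release the outer parts of such receptors, and their inhibitors had 18 tested genes. With TNF 2 rose and 1 fell in p53 siRNA cells, and 5 rose and 1 fell in control siRNA cells. ADAM8, a membrane protease, rose by 1.09 ± 0.16 in control siRNA cells (adjusted p = 0.0012) and was at 0.44 ± 0.16 in p53 siRNA cells (adjusted p = 0.144). TIMP2, a metalloprotease inhibitor, was higher with p53 siRNA by 1.39 ± 0.13 under TNF and 1.23 ± 0.13 in untreated cells (adjusted p = 2.59e-05 and 4.5e-05), although its other probe gave 0.04 and 0.03. For p53 siRNA the list gave 5 higher and 3 lower under TNF, and 5 higher and 2 lower in untreated cells. MMP9 is among the 5 that rose with TNF in control siRNA cells and the 3 lower with p53 siRNA under TNF. It entered the test only through the TNF-treated control siRNA arrays, so its calls add nothing to these counts.

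**Figure D4:**
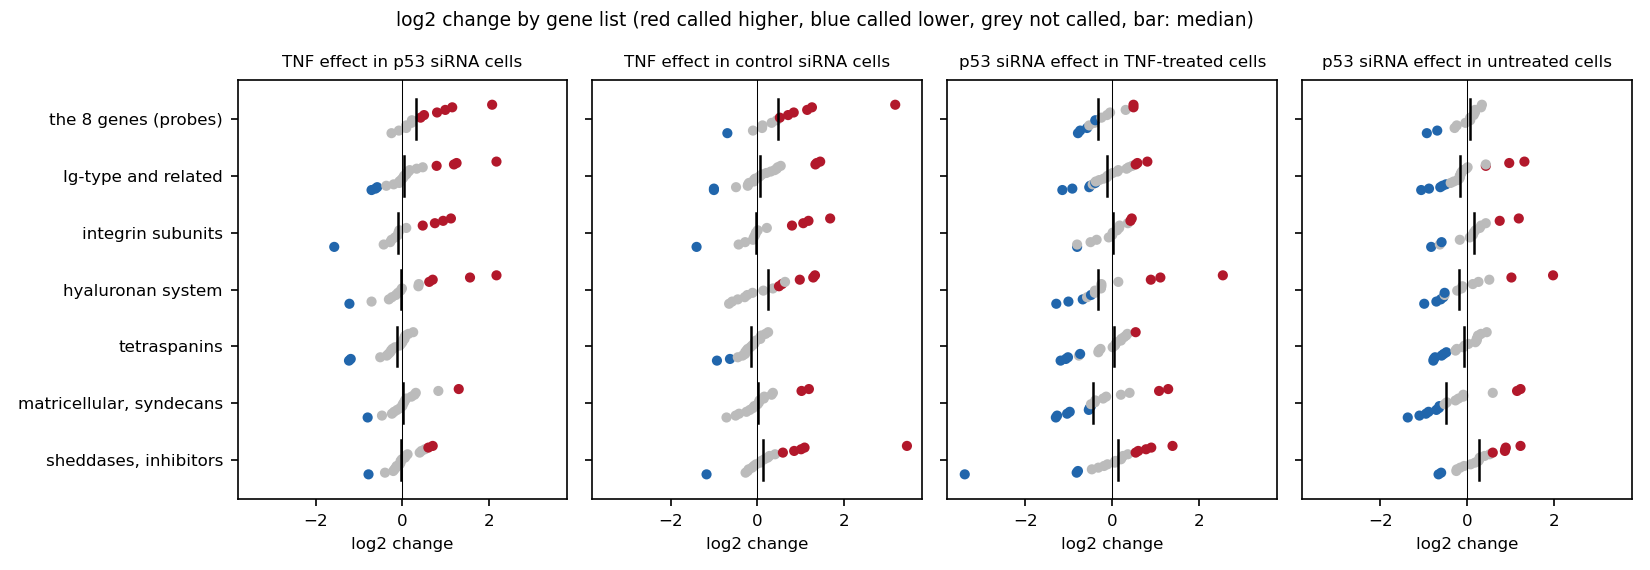
Log2 changes of the 12 tested probes of the 8 genes (top row) and of the tested genes of the 6 lists of relatives and partners in the 4 comparisons of groups. Each point of a list is 1 gene by its brightest tested probe and each point of the top row is 1 probe, red where called higher, blue where called lower and grey where not called, and each bar is the list's median. The 16 matricellular proteins and syndecans have medians of -0.45 and -0.49 for p53 siRNA, and the 18 tetraspanins have 2 blue points for TNF in each of the siRNA groups.

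For each gene with a tested probe, the genes whose brightest probe followed it most closely over the 12 arrays were listed as a description, in which all points share the 4 groups. ICAM1 was followed by TNFAIP3 (Pearson r = 0.992), ZMIZ2 (0.986) and TNIP1 (0.984), and CD82 by C6orf58 (0.979), EBI3 (0.976) and TNIP1 (0.975). For CD44 they were BID (0.985), ICAM2 (0.978) and SAA1 (0.973), and for TNC they were TMEM171 (0.985), SERPIND1 (0.975) and CCL20 (0.974). MCAM, which only the 3 untreated control siRNA arrays detected, was closest to NFATC2IP (0.965), HMGB2 (0.957) and CEP44 (0.943). Its correlations thus rest mostly on undetected values. L1CAM was closest to TMCO6 (0.938), SDR42E1 (0.917) and S1PR5 (0.914), and ALCAM to WRNIP1 (0.952), ANXA1 (0.951) and SAV1 (0.947). ALCAM read 13.17 on untreated p53 siRNA replicate 3, the array that stood apart, and at most 12.44 on any other array. The part of that array in these correlations was not tested.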

How the data were processed

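Total RNA of 12 samples was measured on 1-colour Illumina bead arrays, 3 in each of 4 groups taken from the labels. Per the file headers, the signal table that the authors deposited gives an intensity and a detection p-value per probe and array, for 47322 probes. The submitters' processing notes name GenomeStudio, but not how it computed detection p-values. The authors also deposited a processed table of intensity values for 47313 probes, a median of 241.6 in every column, and on the log2 scale each column correlates with its own array's signals at 0.999 or above. Its scale is therefore linear, it is not centred on genes and runs the same way as the signals, but its normalization method stays unknown, and it served as an alternative.

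Background correction, quantile normalization and log2 were done by neqc (offset 16) from limma 3.58.1 under R 4.3.3. The 23079 probes with a detection p under 0.05 on 3 or more of the 12 arrays were tested. The platform annotation, possibly outdated, gave 30107 probes 1 gene, 8 several and 17207 none, and all 8 genes studied matched RefSeq by Entrez ID. Group means over all 12 arrays were estimated with lmFit and eBayes (2-sided, 8 residual and 4.15 prior degrees of freedom), and p-values were adjusted by Benjamini-Hochberg over all tested probes within each of 5 comparisons. The number of arrays limits the precision. P-values measure the spread between arrays that the labels call biological replicates. The script was tested on simulated data.

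The genes studied, the lists and the tests were chosen with earlier results of these data known. Every probe of the 8 genes is named, with up to 3 called genes of a list and comparison by adjusted p, a few other comparisons of those genes, the defining cell type markers, and the 3 genes most correlated with each gene. Where no array of a group detected a gene, its fold is a bound. Promoter windows came from RefSeq, assembly GRCh38.p14; no probe positions are given. The alternatives were median scaling, no background correction, the authors' values, other detection filters, array weights, fitting only the compared groups, 1 probe per gene, the replicate number as a block, and leaving out each array. Depletion by the p53 siRNA was not checked, because its target transcript is left out of what is reported.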

Additional observations from a re-analysis of the deposited data

Results flagged for a closer look

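MMP9, a gelatinase among the sheddases, gave a difference in TNF response between the siRNA groups. It was detected on the 3 TNF-treated control siRNA arrays and on none of the other 9. The TNF response with p53 siRNA minus the response with control siRNA was -3.33 on the log2 scale, a fitted value that rests on undetected signals in 3 of the 4 groups and is no bound. The probe entered the test only through the group in which it was high, and the limma adjusted p with no detection filter, over all 47322 probes, was 2.23e-07. With no background correction the value was -1.79, and on the authors' processed values -1.89. As bounds, MMP9 was at least 5.83-fold lower in TNF-treated p53 siRNA cells than in TNF-treated control siRNA cells, and at least 6.06-fold higher in TNF-treated than in untreated control siRNA cells.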

How the results depend on the processing

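For the probes of the 8 genes, 1119 of 1208 values under an alternative stayed on the same side of the threshold, 31 gained a call, 58 lost one and 0 turned direction while called. Counts over all probes moved by over 1.5 times as follows. With median scaling TNF in p53 siRNA cells called 635 (main value 1138) and the response difference 12 (19), and 4 probes of the 8 genes (2) were called for p53 siRNA in untreated cells. Median scaling also moved the median log2 difference of all tested probes to -0.12 in both p53 siRNA comparisons, and the share of calls that were higher to 19.3% (46.4%) under TNF and 25.4% (50.4%) in untreated cells. No background correction and the authors' values gave 52 and 44 calls for the response difference, each with 1 probe of the 8 genes, and shares of higher calls of 46.2% and 47.7% (15.8%). That share was 32% with array weights and 37% with 1 probe per gene, which also called 1 probe of the 8 genes. Array weights called 2693 for TNF in control siRNA cells (1439) and 8235 for p53 siRNA under TNF (5331). The compared groups alone called 364 for TNF in p53 siRNA cells, with 2 probes of the 8 genes (6), of which 65.4% were higher (52%), and 3894 for p53 siRNA in untreated cells (6395). The filter on all 12 arrays called 3 for the response difference and 1 probe of the 8 genes for p53 siRNA in untreated cells.

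Leaving out 1 array gave 651 to 2055 calls for TNF in p53 siRNA cells (4 to 7 probes of the 8 genes), 822 to 2323 for TNF in control siRNA cells (5 to 8), 3730 to 7191 for p53 siRNA under TNF (2 to 8), 4757 to 7140 for p53 siRNA in untreated cells (2 to 3) and 9 to 32 for the response difference (0 to 0). The highest counts over all probes all came without untreated p53 siRNA replicate 3. Without p53 siRNA TNF replicate 1, 2 or 3, TNF in p53 siRNA cells called 651, 653 and 662. Without any 1 of the 6 control siRNA arrays, TNF in control siRNA cells called 822 to 912. The response difference called 9 without untreated control siRNA replicate 2 or p53 siRNA TNF replicate 2, 10 without control siRNA TNF replicate 3, and 12 without untreated control siRNA replicate 3 or p53 siRNA TNF replicate 1. The cause of these moves was not tested.

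The main fit did not pair the samples by the replicate numbers of the labels. Of 18 pairs with the same number, deviations from the group means correlated at -0.10 to 0.15 with 1 over 0.1, and 6 of 12 arrays correlated best with their own number. The 36 pairs with different numbers correlated at -0.13 to 0.12. With so few arrays these values cannot settle whether the numbers pair the samples. With the replicate block 981, 1273, 5102, 6184 and 17 probes were called for TNF in p53 siRNA cells, TNF in control siRNA cells, p53 siRNA under TNF, p53 siRNA in untreated cells and the response difference, and 5, 7, 6, 2 and 0 of the 12 tested probes of the 8 genes. The 1 call lost among the 8 genes was that of the brightest CD44 probe for TNF in p53 siRNA cells. Signal over background limits VCAM1, MCAM and the dimmer L1CAM probe, whose values lie at or near the detection limit, and the changes of MCAM and L1CAM were smaller without background correction.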

Other observations

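PECAM1 and ESAM, adhesion receptors best known from endothelium, were detected on all 12 arrays, although CDH5, KDR, VWF and CLDN5 were detected on none. PECAM1 rose by 0.79 ± 0.17 with TNF in p53 siRNA cells (limma adjusted p = 0.0163) and by 1.37 ± 0.17 in control siRNA cells (adjusted p = 0.000289). The call in p53 siRNA cells was lost without p53 siRNA TNF replicate 2 or 3 (adjusted p = 0.0768 and 0.0607), with median scaling (0.0508) and when only the compared groups were fitted (0.0617). ESAM was at -0.92 ± 0.13 with p53 siRNA under TNF and -0.88 ± 0.13 in untreated cells (adjusted p = 0.000421 and 0.000444). ITGB2, the beta subunit of the leukocyte integrins that bind ICAM1, was likewise detected on all 12 arrays, where PTPRC was detected on none. With p53 siRNA it was at -0.81 ± 0.15 under TNF and -0.59 ± 0.15 in untreated cells (adjusted p = 0.00261 and 0.0132), and its other probe gave -0.98 and -0.63.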
